A study of Mus musculus with 9 samples.

Results

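The genes described here are 10 claudins of the mouse nephron: Cldn1, Cldn2, Cldn3, Cldn4, Cldn7, Cldn8, Cldn10, Cldn14, Cldn16 and Cldn19. They were taken by symbol and make up 10 of the 33 claudin genes and of the 55385 genes in the table. Poly(A) RNA from whole kidney was sequenced from 9 male C57BL/6 mice (C57BL/6J in the study's methods), with 1 library for each mouse and 3 mice in each group. The methods give 8 to 10 weeks as the age of the mice taken for the model. Kidneys were collected at the end of the 4 weeks that followed. Control mice (replicates 2, 4 and 5) were untreated. Their sample titles, like those of the other groups, begin with HN mice, and they were taken as Control by the disease state and the letter C in the titles. Mice with Hyperuricemic Nephropathy (HN, replicates 4, 8 and 12) received adenine at 0.16 g/kg and potassium oxonate at 2.4 g/kg over 4 weeks, so that the model is made by fed compounds and not by a genetic change. The mice named PEC (replicates 1, 2 and 3) received adenine and potassium oxonate in the same way and, by mouth over the same 4 weeks, Pectolinarigenin, a plant flavonoid. Its dose in the sequenced mice is taken from the study's text as 25 mg/kg, since the sample labels give none. The libraries held from 57714111 (PEC replicate 3) to 81069646 (HN replicate 8) counted reads, with a median of 74397038.

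Claudins are membrane proteins of the tight junction, the seal that joins neighbouring epithelial cells. Their extracellular loops set which ions and how much water can pass between the cells, and each stretch of the nephron carries its own combination: pore-forming claudins in the proximal tubule and thick ascending limb, and tighter, barrier-forming ones towards the collecting duct. Mutations in the claudins of the thick ascending limb are known for causing renal loss of magnesium and calcium.

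The comparison of HN with Control asks what the model changed in the kidney, and that of PEC with HN asks what differed under treatment. PEC with Control shows what still differed from untreated mice. The comparisons share samples, so their values are given side by side and are not independent of each other. Levels are FPKM, fragments scaled to the length of the gene and the depth of the library, as the authors deposited them. Changes are log2 fold changes from edgeR on the deposited counts, with a standard error (SE) and a p adjusted over the 21392 genes tested. A gene is said to have risen or fallen when the fold change was at least 1.5 (0.585 on the log2 scale) and the edgeR adjusted p at most 0.05. An exact permutation test of 3 mice against 3 cannot give a p under 0.10, so levels of single genes were not tested in that way.

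The libraries differed between groups in ways that bear on the claudin values. Genes of the mitochondrial genome held 13.3%, 12.9% and 16.3% of the counts in Control, then 6.01%, 6.22% and 6.34% in HN, then 13.0%, 10.3% and 13.7% in PEC. Scaled to library totals only, the median log2 fold change of all tested genes was 0.56 in HN against Control, -0.21 in PEC against HN and 0.40 in PEC against Control. With the TMM scaling used in edgeR the medians were -0.001, -0.015 and 0.045. A ratio of FPKM between groups therefore carries that shift, and the log2 fold changes below are relative to it. The part of the mitochondrial share in the shift was not tested.

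The PEC libraries also stood apart in which transcripts they held. Of 4 bins of genes by GC content, the lowest held 3421 genes (27.5% to 44.9% GC), and there the median log2 deviation from each gene's mean was 0.20, 0.19 and 0.26 in Control and 0.14, 0.10 and 0.12 in HN. In PEC it was -0.29, -0.27 and -0.26. In the bin with the longest transcripts of 4, HN lay at 0.22, 0.16 and 0.16 and PEC at -0.24, -0.18 and -0.24. The sources used here give no library batch, and library preparation and treatment cannot be told apart. Of the claudins, Cldn1 (39.0% GC, 4145 bases) and Cldn8 (40.6% GC, 2356 bases) lie in that low-GC bin. A fit with each library's trend on GC content and length removed, chosen after the data had been seen, is given beside each claudin and each gene list whose calls it changes.

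**Figure D1:**
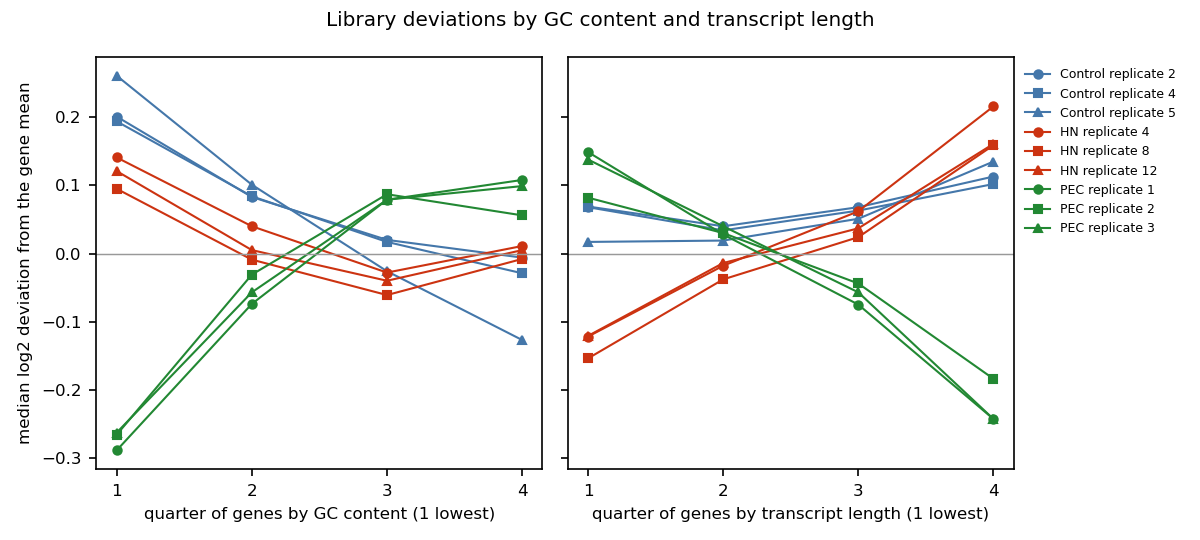
The median log2 deviation of each library from the gene mean (vertical axis) over 4 bins of genes by GC content and by transcript length (horizontal axes), with Control in blue, HN in red and PEC in green and 1 line for each of the 9 libraries. In the lowest GC bin the PEC libraries lie between -0.29 and -0.26 and all others above 0.

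PEC replicate 3 differed from every other library at Cldn2, where it held 2 counts against 29061 to 46777 elsewhere. Besides Cldn2, Xntrpc and Moap1, named after their values were seen, stood there below 1 in 50 of their level in every other library, whereas each other library lost between 0 and 2 genes by the same measure. Xntrpc had 0 counts there and 79 to 240 elsewhere, while Trpc2, also named after its values were seen, had 133 there and 0 in every other library. Whether reads were assigned to genes differently in PEC replicate 3 was not tested. The neighbours of Cldn2 on chromosome X, chosen after their values were seen, varied in PEC replicate 3. Morc4 had 495 counts (669 and 651 in PEC replicates 1 and 2) and Rnf128 had 5926 (6739 and 5116). Rbm41 had 34 counts there, 117 and 114 in the other PEC libraries and 421 to 766 in Control and HN, and Tbc1d8b had 383, against 733 and 678 in the other PEC libraries and 2666 to 3197 in Control and HN. Ripply1 had 4 counts there and 0 to 13 elsewhere. Transcripts of fat also stood out there, with 5539 counts of Adipoq, also named after its values were seen, against 0 to 559 in the others. The log2 fold changes of Cldn2 by edgeR with TMM are given with and without that library.

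Of the 10 claudins, all of which passed the filter on low counts, 4 rose and 1 fell in HN against Control by edgeR, where 17.7% of tested genes rose and 14.7% fell. Cldn1, Cldn3, Cldn4 and Cldn7 were higher and Cldn10 was lower. With library totals, which leave the shift of all genes in, 8 rose and 1 fell in HN, the added ones being Cldn8, Cldn14, Cldn16 and Cldn19, and without PEC replicate 3 the number that fell was 2, with Cldn2. With the GC and length trends removed 5 rose, with Cldn16. Under treatment, in PEC against HN, 1 rose and 4 fell, with 13.4% of tested genes higher and 15.3% lower. Cldn10 was higher in that comparison, and Cldn1, Cldn3, Cldn4 and Cldn8 were lower. The number that fell there was 2 without PEC replicate 2, 2 with the GC and length trends removed and 1 with upper-quartile scaling, and the number that rose was 2 without HN replicate 12. With library totals or with the trends removed the call of Cldn10 was lost. In PEC against Control 6 claudins were higher, with 18.9% of tested genes higher: Cldn1, Cldn3, Cldn4, Cldn7, Cldn16 and Cldn19, and 5 with the trends removed. The number of claudins called lower there was 0 by edgeR, 0 at an unadjusted p of 0.05, 0 by DESeq2 and 0 by limma, against 17.4% of tested genes. Without PEC replicate 3 it was 1 (Cldn2), without Control replicate 4 it was 1 (Cldn8), and with the GC and length trends removed it was 1 (Cldn10). The median log2 fold change of the claudins was 0.78 in HN against Control, -0.36 in PEC against HN and 1.03 in PEC against Control.

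**Figure D2:**
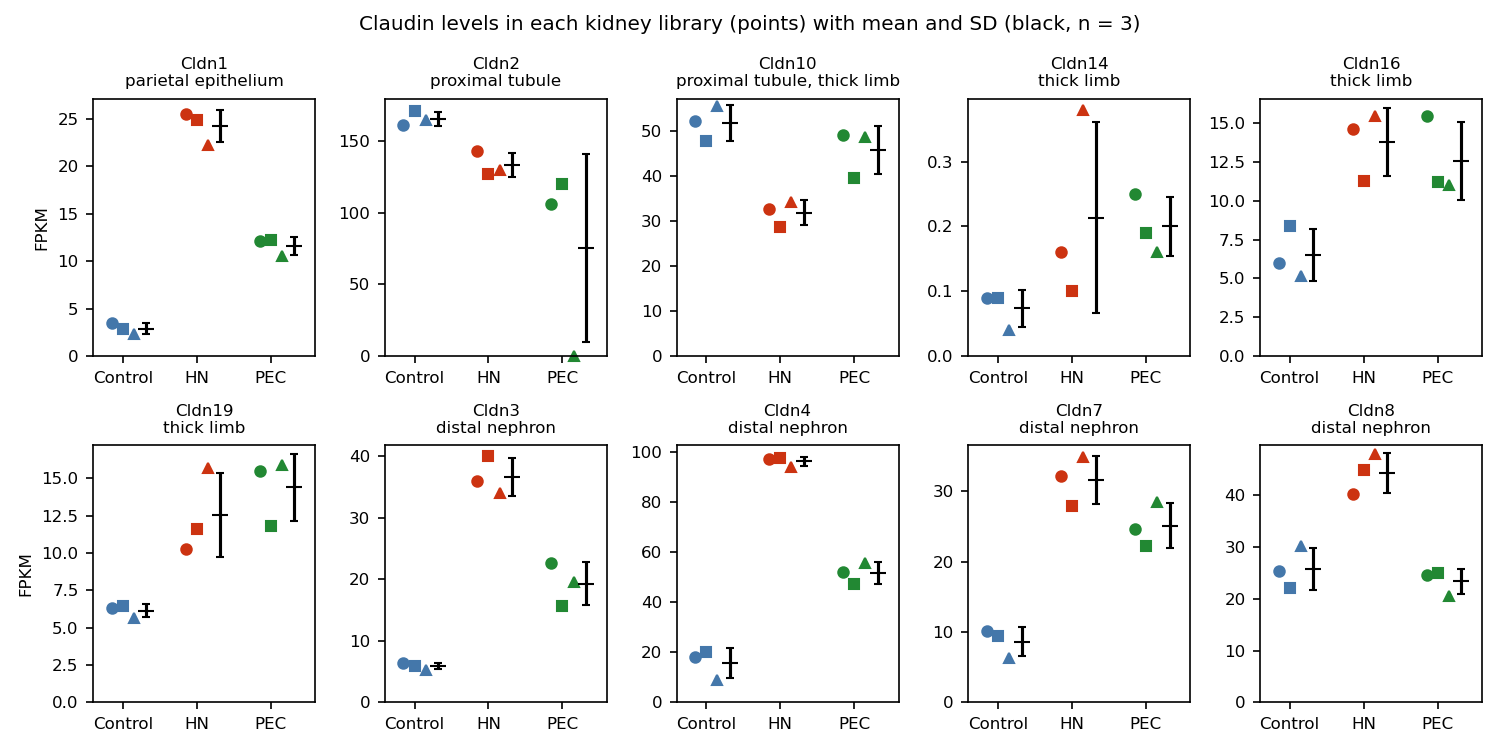
Level of each claudin in FPKM (vertical axes, each from 0) in Control, HN and PEC, with 1 point for each library (circle, square and triangle in the order of the replicate numbers) and the mean and SD of 3 mice in black. Cldn4 lies between 9.05 and 20.2 in Control and between 93.9 and 97.3 in HN, and Cldn2 stands at 0.01 in PEC replicate 3.

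Cldn2 forms the cation- and water-permeable pore of the proximal tubule. The gene (ENSMUSG00000047230) lies on chromosome X from 139800828 to 139811386 of GRCm38. Its FPKM was 161, 171 and 165 in Control replicates 2, 4 and 5, 143, 127 and 130 in HN replicates 4, 8 and 12, and 106, 120 and 0.01 in PEC replicates 1, 2 and 3. Every HN library was below every Control library, and every PEC library was below every HN library. With all libraries, the log2 fold change in HN against Control was -0.84 (SE 1.39, edgeR adjusted p = 0.676). PEC replicate 3 sets that error, since the fit shares its spread over all 9 libraries. Without it, Cldn2 fell by 0.85 on the log2 scale (SE 0.093, edgeR adjusted p = 0.000152), and with Control and HN alone by 0.81 (SE 0.088, edgeR adjusted p = 0.000296). Over the 22 settings run, the change in HN against Control ran from -0.919 to -0.286, and 2 of them called it.

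The change of Cldn2 in PEC against HN was -0.61 (SE 1.38, edgeR adjusted p = 0.761), and 0.00 without PEC replicate 3 (SE 0.10, edgeR adjusted p = 0.995). Against Control, PEC lay at -1.45 (SE 1.41, edgeR adjusted p = 0.43) with all libraries. Without PEC replicate 3 Cldn2 was lower than in Control by -0.85 (SE 0.11, edgeR adjusted p = 0.000436). Over the 22 settings run, the change of Cldn2 ran from -3.574 to 0.001 in PEC against HN and from -3.885 to -0.845 in PEC against Control. So the FPKM of PEC replicates 1 and 2 was below that of HN while the TMM-scaled change from HN was near 0.

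Cldn2 stood against a larger drop of the proximal tubule markers. Of 10 markers, 9 fell in HN against Control, beside 14.7% of all tested genes. Their median log2 fold change was -1.82, beside -0.00 for all tested genes. The phosphate transporter Slc34a1 had 668, 717 and 740 FPKM in Control, then 209, 209 and 216 in HN, then 437, 522 and 323 in PEC. It fell by 2.28 on the log2 scale in HN (SE 0.17, edgeR adjusted p = 1.02e-05) and was higher by 1.23 in PEC against HN (SE 0.16, edgeR adjusted p = 0.000436). The other named markers fell in HN too: Slc22a6 by -2.32, Slc13a3 by -2.12, Slc5a2 by -1.91, and the endocytic receptors Lrp2 by -1.89 and Cubn by -1.74. Of the 10 markers 8 were higher and 1 was lower in PEC against HN (median 0.92), beside 13.4% and 15.3% of all tested genes. With library totals the same comparison had 6 higher and 2 lower (median 0.72), and with the GC and length trends removed 6 higher and 0 lower (median 1.01). The number lower was 0 without PEC replicate 3 and 2 without PEC replicate 2. Fewer cells of a type and less RNA per cell cannot be told apart in whole kidney.

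Per 1000 FPKM of the summed proximal tubule markers, Cldn2 stood at 98.6, 98.1 and 96.8 in Control and at 223, 206 and 206 in HN. In PEC it stood at 99.3, 97.2 and 0.011. The HN libraries were thus above all Control and PEC libraries in this ratio, although their Cldn2 level was below Control. The summed markers themselves came to 1630, 1740 and 1700 FPKM in Control, then 643, 616 and 632 in HN, then 1070, 1240 and 913 in PEC, with Slc34a1 the most abundant and no marker at 0.

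Cldn10 has an anion-selective form in the proximal tubule and a cation-selective form in the thick ascending limb, made from different start sites that gene-level counts cannot separate. The gene (ENSMUSG00000022132) spans chromosome 14 from 118787908 to 118874525. Its FPKM was 52.1, 47.6 and 55.5 in Control, then 32.6, 28.7 and 34.1 in HN, then 49.0, 39.6 and 48.7 in PEC. All HN libraries were below all others, and PEC overlapped Control. Cldn10 fell by 1.24 on the log2 scale in HN against Control (SE 0.12, edgeR adjusted p = 5e-05) and was higher by 0.74 in PEC against HN (SE 0.12, edgeR adjusted p = 0.00142). PEC against Control lay at -0.50 (SE 0.12, edgeR adjusted p = 0.0081), short of the fold change asked for.

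The rise of Cldn10 in PEC against HN held with median-of-ratios (0.74) and upper-quartile (0.87) scaling and did not reach the fold change of 1.5 under these settings: 0.54 with library totals (edgeR adjusted p = 0.00516), 0.51 by limma on FPKM (adjusted p = 0.00432) and 0.47 with the GC and length trends removed (edgeR adjusted p = 0.0158). With those trends removed Cldn10 was called lower in PEC against Control, at -0.66 (edgeR adjusted p = 0.00195).

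Beside the markers of the thick ascending limb, the place of Cldn10 depended on the marker. Per 1000 FPKM of the 6 markers it stood at 44.7, 36.0 and 47.0 in Control, then 20, 19.7 and 21 in HN, then 34.2, 27.2 and 35.7 in PEC, with HN below all others. Most of that sum is uromodulin (Umod), which was not called. With Umod left out of the sum, chosen after the data had been seen, Cldn10 stood at 162, 124 and 169 in Control, then 134, 139 and 130 in HN, then 181, 164 and 174 in PEC, and HN overlapped Control. Per FPKM of the sodium-potassium-chloride cotransporter Slc12a1 it stood at 0.290, 0.206 and 0.287 in Control and at 0.278, 0.300 and 0.291 in HN, again overlapping. Per 1000 FPKM of the proximal tubule markers HN was above Control instead, with 32, 27.3 and 32.7 in Control and 50.7, 46.6 and 53.9 in HN. PEC, with 45.9, 32 and 53.4, overlapped both.

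Cldn16 and Cldn19 form the magnesium- and calcium-permeable pathway of the thick ascending limb and need each other at the junction. Cldn16 (ENSMUSG00000038148) lies on chromosome 16 from 26463135 to 26482765. Its FPKM was 5.98, 8.40 and 5.14 in Control, then 14.6, 11.3 and 15.5 in HN, then 15.5, 11.2 and 11 in PEC. Both other groups were above Control in every library and overlapped each other. Relative to the scaling, the change in HN was 0.56 (SE 0.21, edgeR adjusted p = 0.0623), not called, and that in PEC against Control was 0.64 (SE 0.21, edgeR adjusted p = 0.035), called higher.

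Calls of Cldn16 turned on single libraries and settings. In HN against Control it was called higher in 8 of the 22 settings run. Among them were the fits without Control replicate 4 (0.76, edgeR adjusted p = 0.0229), without HN replicate 8 (0.69, edgeR adjusted p = 0.0469), with the GC and length trends removed (0.79, edgeR adjusted p = 0.0123) and with library totals (1.11, edgeR adjusted p = 0.00271). In PEC against Control the call was lost without Control replicate 2 (0.57), Control replicate 5 (0.51) or PEC replicate 1 (0.45), without HN replicate 4 (0.63, edgeR adjusted p = 0.0504) and with the trends removed (0.46, edgeR adjusted p = 0.0982). The change in PEC against HN was 0.08 (SE 0.21, edgeR adjusted p = 0.796), and it took either sign across the scalings.

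Cldn19 (ENSMUSG00000066058, chromosome 4, 119255414 to 119262438) had 6.32, 6.44 and 5.67 FPKM in Control, then 10.3, 11.6 and 15.7 in HN, then 15.5, 11.8 and 15.9 in PEC. As for Cldn16, all HN and PEC libraries were above Control and overlapped each other. The log2 fold change was 0.49 in HN against Control (SE 0.16, edgeR adjusted p = 0.0346), under the fold change of 1.5, and reached it without HN replicate 4 (0.60, edgeR adjusted p = 0.0243) and with library totals (1.05, edgeR adjusted p = 0.001). Of the 22 settings run for that comparison, 4 called Cldn19 higher. PEC against HN lay at 0.42 (SE 0.16, edgeR adjusted p = 0.063), and at 0.59 without HN replicate 12 (edgeR adjusted p = 0.0156), where it was called. PEC against Control was higher by 0.91 (SE 0.16, edgeR adjusted p = 0.00151). Cldn19 shares 91 bases with the antisense gene Gm12927, and since the strandedness of the libraries is not given in the sources used here, reads on that stretch cannot be assigned.

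The ratio of Cldn16 to Cldn19 in FPKM was 0.946, 1.30 and 0.907 in Control, then 1.42, 0.980 and 0.987 in HN, then 1.00, 0.947 and 0.694 in PEC, and all groups overlapped. Of the limb's own 6 markers, 4 fell in HN against Control (median -0.98), beside 14.7% of all tested genes. With library totals 1 of the 6 was higher and 1 lower (median -0.42). By edgeR with TMM, Slc12a1 fell by 1.40 on the log2 scale (SE 0.15, edgeR adjusted p = 8.63e-05) and the potassium channel Kcnj1 by 0.94 (SE 0.12, edgeR adjusted p = 0.000283). The most abundant marker, Umod, had a log2 fold change of 0.07 (SE 0.10, edgeR adjusted p = 0.607). The markers summed to 1170, 1320 and 1180 FPKM in Control, then 1630, 1460 and 1630 in HN, then 1430, 1460 and 1370 in PEC. Without Umod the sum was lower in HN instead, with 322, 385 and 329 FPKM in Control, then 244, 207 and 263 in HN, then 270, 242 and 280 in PEC. Cldn16 per 1000 FPKM of them stood at 5.12, 6.35 and 4.35 in Control, then 8.95, 7.78 and 9.52 in HN, then 10.8, 7.66 and 8.07 in PEC, with HN and PEC above Control in every library, as they also were with Umod left out. The HN mean was 1.66 times the Control mean with Umod in the sum and 3.10 times without it.

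Cldn14 (ENSMUSG00000047109, chromosome 16, 93919031 to 93942384) blocks the cation pathway of the limb and is known to respond to the calcium-sensing receptor. Its FPKM was 0.09, 0.09 and 0.04 in Control, then 0.16, 0.10 and 0.38 in HN, then 0.25, 0.19 and 0.16 in PEC. Apart from Cldn2 at 0.01 FPKM in PEC replicate 3, these are the lowest levels among the 10 claudins. The log2 fold change was 1.00 in HN against Control (SE 0.57, edgeR adjusted p = 0.193), 0.14 in PEC against HN (SE 0.55, edgeR adjusted p = 0.864) and 1.14 in PEC against Control (SE 0.57, edgeR adjusted p = 0.13). HN replicate 12 held the largest share, and without it the change in HN against Control was 0.36 (edgeR adjusted p = 0.677). None was called, except in HN against Control with library totals (1.56, edgeR adjusted p = 0.0479), and the errors leave room for changes in either direction in PEC against HN. The calcium-sensing receptor Casr, named after its values were seen, fell by 1.44 on the log2 scale in PEC against HN (SE 0.14, edgeR adjusted p = 0.00011).

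Cldn3, Cldn4, Cldn7 and Cldn8 are claudins of the distal nephron and collecting duct. Cldn3 and Cldn4 lie 39.3 kb apart on chromosome 5 and encode close relatives, and Cldn7 is known for a large basolateral pool besides the junction. Cldn3, Cldn4 and Cldn7 rose together in HN, and the windows from 250 bases before to 50 bases after a start site are shown for them. Sequences are from RefSeq on GRCm38.p6, 5′ to 3′ on the gene's strand: Cldn3 chr5:134985964-134986263 (plus), Cldn4 chr5:134946885-134947184 (minus) and the downstream of the windows listed for Cldn7, chr11:69965171-69965470 (plus). Capitals mark CAGGTG, or CACCTG for the other strand, the E-box that Snail and Zeb repressors are known to bind.
Cldn3: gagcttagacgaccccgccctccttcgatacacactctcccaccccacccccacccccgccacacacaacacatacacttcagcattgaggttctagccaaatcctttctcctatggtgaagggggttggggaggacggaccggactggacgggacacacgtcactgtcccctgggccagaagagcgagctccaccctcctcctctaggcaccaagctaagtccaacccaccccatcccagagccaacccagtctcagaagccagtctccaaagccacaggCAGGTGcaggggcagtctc
Cldn4: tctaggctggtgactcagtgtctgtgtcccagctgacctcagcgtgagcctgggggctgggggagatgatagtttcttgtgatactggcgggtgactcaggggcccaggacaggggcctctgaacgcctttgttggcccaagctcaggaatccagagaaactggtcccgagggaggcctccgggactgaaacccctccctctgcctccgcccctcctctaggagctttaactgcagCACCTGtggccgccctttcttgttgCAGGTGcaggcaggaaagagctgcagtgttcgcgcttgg
Cldn7: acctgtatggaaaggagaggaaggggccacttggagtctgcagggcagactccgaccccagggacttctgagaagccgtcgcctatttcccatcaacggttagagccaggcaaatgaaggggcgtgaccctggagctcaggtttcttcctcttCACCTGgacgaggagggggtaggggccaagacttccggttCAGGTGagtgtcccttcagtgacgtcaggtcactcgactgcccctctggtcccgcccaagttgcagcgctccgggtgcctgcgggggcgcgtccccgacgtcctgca

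RefSeq windows were listed for 9 of the 10 claudins, 14 windows in all among 32851, and Cldn8 had none. The E-box CAGGTG, searched on both strands, was in 4 of the 14 windows and in 20.2% of all windows. Its first base lay at 32 from the start site in Cldn3, at -14 and 12 in Cldn4 and at -97 and -57 in Cldn7, and the remaining window was 1 of those of Cldn14. The windows printed above all hold the word. The window of Cldn1, which also rose in HN, and the other window of Cldn7 do not. The AP-1 word TGANTCA was in the Cldn4 window, at -240 and -158, and in 7.81% of all windows. Other words searched on both strands were the GC box GGGCGG (7 of the 14 windows, 35.7% of all), the STAT word TTCNNNGAA (2 windows, 8.30% of all), TATAAA (Cldn2, 13.6% of all) and the HNF4 word CAAAGNNCA (Cldn10, 6.36% of all). The GRHL word AACCNGTT (2.09% of all windows), GTCTAGAC for SMAD (0.213%), the HNF1 word (0.0578%) and the NF-kB word (0.411%) were in 0 of the 14. No matches of different words overlapped in these windows, while the 2 windows of Cldn19 overlap and share their GC boxes. A match describes letters only.

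Cldn4 takes part in the chloride-selective pathway of the collecting duct. The gene (ENSMUSG00000047501) lies on chromosome 5 from 134945119 to 134946934. Its FPKM was 18.0, 20.2 and 9.05 in Control, then 97.2, 97.3 and 93.9 in HN, then 52.0, 47.2 and 55.8 in PEC. The groups did not overlap, with PEC between Control and HN, and Control replicate 5 was the lowest library. Cldn4 rose by 2.09 on the log2 scale in HN against Control (SE 0.24, edgeR adjusted p = 0.000121), a ratio of 6.10 between mean FPKM values. It was lower in PEC against HN by -0.68 (SE 0.23, edgeR adjusted p = 0.0428) and higher in PEC against Control by 1.41 (SE 0.23, edgeR adjusted p = 0.00109).

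The call of Cldn4 in PEC against HN held without Control replicate 4 and without Control replicate 5, and it was lost without any other library. Without Control replicate 2, HN replicate 4, 8 or 12, or PEC replicate 1, 2 or 3, the edgeR adjusted p was 0.0511, 0.105, 0.0925, 0.076, 0.0937, 0.112 and 0.0717, with log2 fold changes from -0.72 to -0.62. With upper-quartile scaling it was -0.55 (edgeR adjusted p = 0.0768), and with the GC and length trends removed it was -1.04 (edgeR adjusted p = 0.00601).

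Cldn3 (ENSMUSG00000070473, chromosome 5, 134986214 to 134987472) had 6.34, 5.98 and 5.31 FPKM in Control, then 35.9, 40.0 and 34.0 in HN, then 22.6, 15.7 and 19.6 in PEC. Again the groups did not overlap and PEC lay between the others. Cldn3 shares 40 bases with the antisense gene Wbscr25, and reads on them cannot be assigned without strandedness. Cldn3 rose by 2.11 on the log2 scale in HN (SE 0.14, edgeR adjusted p = 7.51e-06), fell by 0.71 in PEC against HN (SE 0.14, edgeR adjusted p = 0.00374) and was higher by 1.40 in PEC against Control (SE 0.14, edgeR adjusted p = 6.94e-05). The change in PEC against HN came to -0.58 both without PEC replicate 2 (edgeR adjusted p = 0.00811) and with upper-quartile scaling (edgeR adjusted p = 0.0093), just under the fold change of 1.5. The ratio of Cldn4 to Cldn3 averaged 2.64 ± 0.855 in Control, 2.63 ± 0.176 in HN and 2.72 ± 0.37 in PEC (SD, n = 3), and the groups overlapped.

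Cldn7 (ENSMUSG00000018569, chromosome 11, 69964779 to 69967885) had 10.2, 9.37 and 6.31 FPKM in Control, then 32.1, 27.9 and 34.8 in HN, then 24.6, 22.2 and 28.5 in PEC. Control lay below both other groups, and PEC overlapped HN. It rose by 1.34 on the log2 scale in HN against Control (SE 0.17, edgeR adjusted p = 0.000258) and was higher by 1.23 in PEC against Control (SE 0.17, edgeR adjusted p = 0.000429). PEC against HN lay at -0.11 (SE 0.17, edgeR adjusted p = 0.634), at 0.01 with upper-quartile scaling and at -0.55 with the GC and length trends removed (edgeR adjusted p = 0.0181), where it stayed under the fold change of 1.5. In FPKM the ratio of Cldn4 to Cldn7 was 1.76, 2.16 and 1.43 in Control, then 3.02, 3.49 and 2.70 in HN, then 2.11, 2.12 and 1.95 in PEC. That of Cldn3 to Cldn7 was 0.620, 0.638 and 0.842 in Control, then 1.12, 1.43 and 0.978 in HN, then 0.918, 0.707 and 0.685 in PEC. Both ratios were highest in HN, with no overlap with the other groups, and PEC overlapped Control. No p was computed for these ratios.

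Cldn8 is thought to work with Cldn4 in the chloride pathway and is a known target of the ubiquitin ligase adaptor Klhl3. The gene (ENSMUSG00000050520) lies on chromosome 16 from 88560828 to 88563183. Its FPKM was 25.3, 22.0 and 30.1 in Control, then 40.3, 44.8 and 48.0 in HN, then 24.6, 24.9 and 20.6 in PEC. HN was above both other groups, which overlapped. Relative to the scaling, the change in HN against Control was 0.24 (SE 0.14, edgeR adjusted p = 0.202), not called, and with library totals it was 0.81 (edgeR adjusted p = 0.000746), called higher. Of the 22 settings run for that comparison, 3 called Cldn8 higher.

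Cldn8 fell by 0.71 on the log2 scale in PEC against HN (SE 0.14, edgeR adjusted p = 0.00391). With upper-quartile scaling the change was -0.58 (edgeR adjusted p = 0.014) and with the GC and length trends removed -0.51 (edgeR adjusted p = 0.0169), both short of a fold change of 1.5. PEC against Control lay at -0.47 (SE 0.14, edgeR adjusted p = 0.0227), and at -0.59 without Control replicate 4 (edgeR adjusted p = 0.00838), where it was called. Klhl3, named after its values were seen, fell by 1.43 in HN (SE 0.10, edgeR adjusted p = 7.78e-06) and was higher by 0.87 in PEC against HN (SE 0.10, edgeR adjusted p = 0.000211). These are RNA values, and whether Klhl3 acted on Cldn8 was not tested.

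The ratio of Cldn4 to Cldn8 in FPKM was 0.711, 0.920 and 0.300 in Control, then 2.41, 2.17 and 1.95 in HN, then 2.12, 1.89 and 2.71 in PEC. In Control, Cldn8 was the more abundant in every library, and in HN and PEC it was Cldn4. Of 8 principal cell markers 4 fell in HN relative to the scaling (median -0.74), beside 14.7% of all tested genes. Among those that fell were the water channels Aqp2 by -1.48 (SE 0.34, edgeR adjusted p = 0.00638), Aqp3 by -1.40 and Aqp4 by -2.14. Others lay above Control in FPKM in every HN library without being called: Hsd11b2 at 0.31, Scnn1b at 0.39 and Scnn1g at 0.13, named after their values were seen. With library totals 3 of the 8 were higher and 3 lower in HN (median -0.18), so the counts of this list depend on the scaling, while its median was below 0 under each setting run. Of the 8, 4 were higher in PEC against HN (median 0.61), beside 13.4% of all tested genes, and 2 with the GC and length trends removed.

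The summed principal cell markers came to 405, 452 and 228 FPKM in Control, then 290, 218 and 306 in HN, then 327, 299 and 375 in PEC, with Aqp2 the most abundant. Control replicate 5, low in Cldn4 and Cldn7, was also low in these markers. Per 1000 FPKM of the principal cell markers, Cldn4 stood at 44.4, 44.7 and 39.6 in Control, then 335, 447 and 307 in HN, then 159, 158 and 149 in PEC. Cldn7 in the same ratio stood at 25.3, 20.7 and 27.6, then 111, 128 and 114, then 75.2, 74.4 and 76.1. In both ratios the groups did not overlap and PEC lay between the others, also for Cldn7, whose FPKM overlapped between PEC and HN. That held with Aqp2 left out of the sum, where the HN mean over the Control mean went from 8.45 to 5.35 for Cldn4 and from 4.79 to 3.12 for Cldn7.

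Of 7 intercalated cell markers, 4 fell in HN (median -0.62), beside 14.7% of all tested genes. The anion exchanger Slc4a1 was lower by -2.26 and the chloride-bicarbonate exchangers Slc26a4 by -1.13 and Slc4a9 by -0.79. Atp6v0d2, named after its values were seen, went the other way, at 0.32 and not called. With library totals 1 of the 7 was higher and 1 lower in HN (median -0.06), and with the GC and length trends removed 3 were lower. Of the 7, 5 were higher in PEC against HN (median 0.77), beside 13.4% of all tested genes, and 3 with library totals or with the trends removed. Cldn8 per 1000 FPKM of these markers stood at 282, 240 and 376 in Control, then 473, 540 and 515 in HN, then 193, 215 and 173 in PEC. Here PEC lay below Control, and HN above it. Per 1000 FPKM of the principal cell markers Cldn8 stood at 62.5, 48.6 and 132 in Control, then 139, 206 and 157 in HN, then 75.0, 83.5 and 54.9 in PEC. In that ratio HN was again the highest, and PEC overlapped Control. With Aqp2, the most abundant, left out of the sum, HN overlapped Control and PEC lay below both. The markers themselves summed to 89.8, 91.4 and 80.1 FPKM in Control, then 85.2, 83.1 and 93.3 in HN, then 127, 116 and 119 in PEC, with Atp6v1g3 the most abundant.

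Cldn1 is a barrier-forming claudin known in the kidney from the parietal epithelium of Bowman's capsule. The gene (ENSMUSG00000022512) lies on chromosome 16 from 26356642 to 26371841, 91.3 kb from Cldn16. Its FPKM was 3.47, 2.80 and 2.33 in Control, then 25.5, 24.9 and 22.3 in HN, then 12.1, 12.2 and 10.5 in PEC. Groups did not overlap, with PEC in the middle. Cldn1 rose by 2.55 on the log2 scale in HN against Control (SE 0.15, edgeR adjusted p = 3.54e-06), a ratio of 8.44 between mean FPKM values and the highest among the 10 claudins.

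Cldn1 fell by 0.84 in PEC against HN (SE 0.14, edgeR adjusted p = 0.0015), and against Control PEC was higher by 1.71 (SE 0.14, edgeR adjusted p = 2.7e-05). Cldn1 is the claudin with the lowest GC content, and the library trends alone gave it -0.50 in PEC against HN. With those trends removed the change was -0.34 (edgeR adjusted p = 0.117), no longer called, and PEC against Control was 2.27, still called. Per 1000 FPKM of the summed podocyte markers, cells of the same corpuscle, Cldn1 stood at 53.5, 42.4 and 38.3 in Control, then 261, 276 and 263 in HN, then 132, 138 and 126 in PEC. Of the 7 podocyte markers 2 rose in HN (Plce1 by 1.12 and Synpo by 0.82, median of the list 0.17), beside 17.7% of all tested genes, and 1 fell in PEC against HN (Plce1, by -0.72), beside 15.3%. In HN 5 of them rose with library totals and 1 with the GC and length trends removed, where Plce1 was no longer called in PEC against HN.

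**Figure D3:**
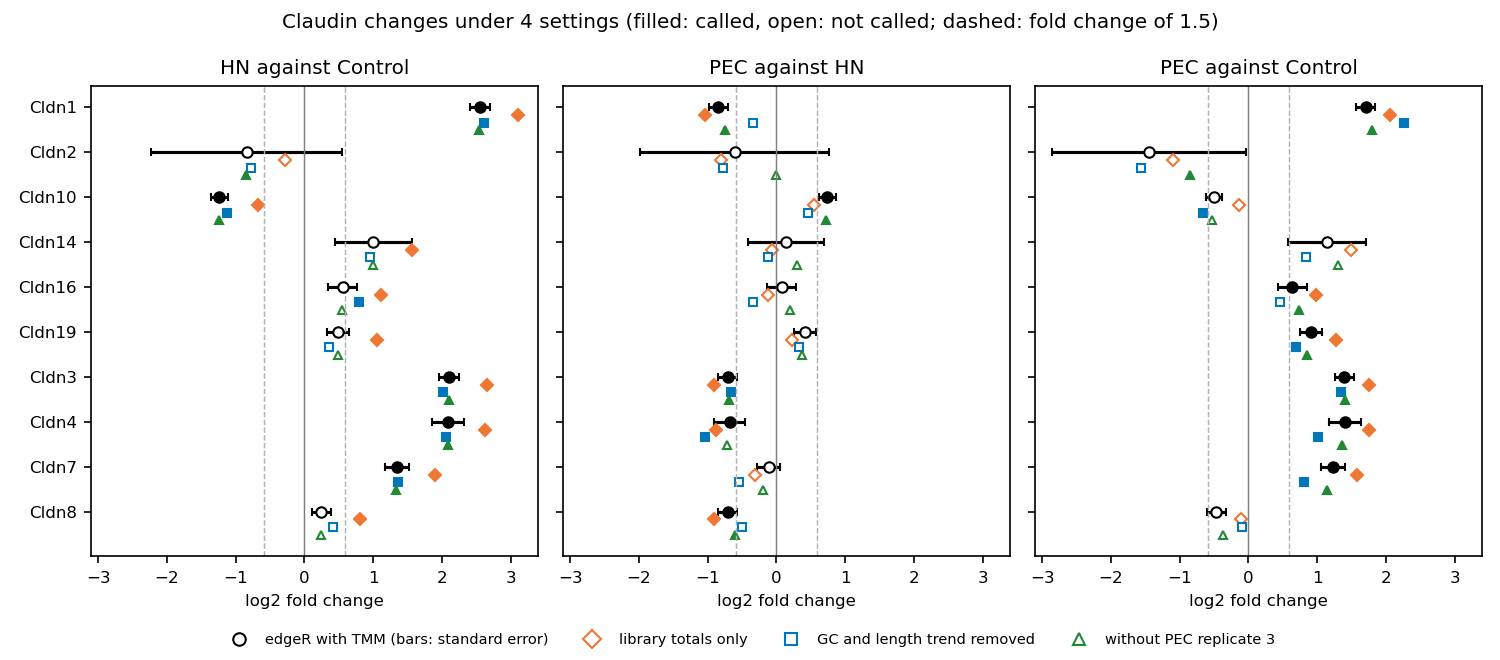
The log2 fold change of each claudin (horizontal axis) in the comparison of HN with Control and in those of PEC with HN and with Control, with edgeR and TMM in black (bars are standard errors) and coloured symbols for library totals, for the GC and length trends removed and for the fit without PEC replicate 3. Filled symbols were called, dashed lines mark a fold change of 1.5, and Cldn1 in PEC against HN moves from -0.84 to -0.34 when the trends are removed.

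Ordered by mean FPKM, Cldn2 led in Control, followed by Cldn10, Cldn8 and Cldn4, with 165 ± 5.29, 51.8 ± 3.99, 25.8 ± 4.12 and 15.7 ± 5.91 FPKM (SD, n = 3). Cldn4, Cldn7, Cldn16, Cldn19 and Cldn3 came next to each other, and neighbours in that run overlapped. Cldn1 and Cldn14 came last and were each set apart. In HN, Cldn2 (133 ± 8.81) was followed by Cldn4 (96.1 ± 1.93) and Cldn8 (44.4 ± 3.87), then by Cldn3, Cldn10 and Cldn7, whose ranges overlapped. Cldn1 at 24.2 ± 1.69 now lay above Cldn16 (13.8 ± 2.17) and Cldn19 (12.5 ± 2.83), which overlapped each other. In PEC, Cldn4 (51.7 ± 4.30) and Cldn10 (45.8 ± 5.31) overlapped, as did neighbours from Cldn7 (25.1 ± 3.19) down to Cldn1 (11.6 ± 0.951). Cldn2 in PEC averaged 75.4 ± 65.7 with PEC replicate 3 included.

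As a share of the summed FPKM of the 10 claudins, Cldn2 held 55.7%, 58.2% and 57.9% in Control and 33.2%, 30.7% and 30.3% in HN. In PEC it held 32.9%, 39.4% and 0.00474%. Cldn4 held 6.23%, 6.88% and 3.19% in Control and 22.5%, 23.5% and 21.9% in HN. Shares do not depend on the scaling between libraries. With Cldn2 left out, the remaining 9 claudins summed to 128, 123 and 120 FPKM in Control, then 289, 287 and 299 in HN, then 216, 185 and 211 in PEC. Of that sum Cldn10 held 40.8%, 38.7% and 46.5% in Control, then 11.3%, 10% and 11.4% in HN, then 22.7%, 21.4% and 23.1% in PEC, with no overlap between groups. Cldn4 held 14.1%, 16.5% and 7.57%, then 33.7%, 33.9% and 31.4%, then 24.1%, 25.5% and 26.5%, in the same order of libraries. The mean share in Control, HN and PEC was 2.31%, 8.32% and 5.73% for Cldn1 and 4.76%, 12.6% and 9.41% for Cldn3, also without overlap between groups. In the shares of Cldn1, Cldn3, Cldn4 and Cldn10 PEC thus lay between Control and HN. For the other 5 its mean did not: the means in the same order were 21%, 15.2% and 11.5% for Cldn8, 6.97%, 10.8% and 12.3% for Cldn7, 4.98%, 4.28% and 7.02% for Cldn19, 5.27%, 4.73% and 6.14% for Cldn16 and 0.059%, 0.0725% and 0.0981% for Cldn14.

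**Figure D4:**
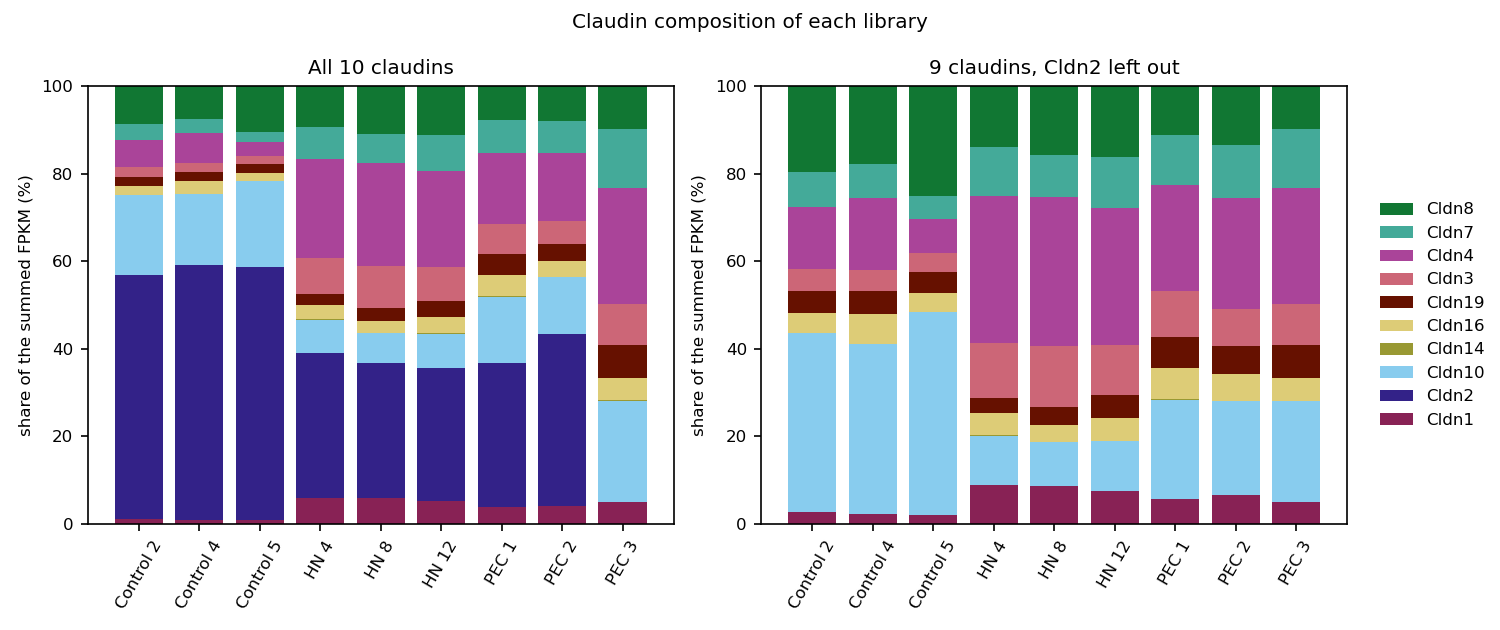
Share of each claudin in the summed FPKM of a library (vertical axis, percent) for the 9 libraries (horizontal axis), over all 10 claudins on the left and over the 9 without Cldn2 on the right. On the right, Cldn10 holds 38.7% to 46.5% in Control, 10% to 11.4% in HN and 21.4% to 23.1% in PEC.

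Other claudin genes, with the claudin-domain genes Cldnd1 and Cldnd2, made up a list of 22 symbols, of which 20 were in the table and 11 were tested. Of the 33 claudin genes, 5 were on neither list: Cldn34b3, Cldn34b4 and Cldn34c4 had 0 counts in every library, Cldn34c3 had 8 counts in HN replicate 4 and 0 elsewhere, and Cldn34c2 was tested and not called in any of the comparisons. Of the 11 listed and tested, 2 rose and 1 fell in HN against Control, with a median of 0.01 (5 rose with library totals), beside 17.7% and 14.7% of all tested genes, so the share that rose was near that of all genes. They were Cldn6 by 3.04, Cldn23 by 2.43 and Cldn18 by -3.71. Without PEC replicate 3 Cldn11, named after its values were seen, was also called lower in HN against Control (-2.468, edgeR adjusted p = 0.025). Cldn18 had 30, 54 and 27 counts in Control and 0, 0 and 12 in HN, and its call was lost with library totals (edgeR adjusted p = 0.0511) and without any 1 of the Control libraries, HN replicate 4 or 8 or PEC replicate 1, at edgeR adjusted p from 0.0502 to 0.091. Without HN replicate 12 its fitted value was -8.43, from HN libraries with 0 counts. In PEC against HN edgeR called 0 of the 11, with 2 called at an unadjusted p (1 higher and 1 lower), 2 by DESeq2 (1 higher and 1 lower) and 2 lower among the 5 tested by limma on FPKM, and the median was -0.31. The edgeR fit called 2 lower with library totals, 1 lower with the GC and length trends removed, 1 lower without Control replicate 4 or 5 or PEC replicate 2, 1 higher and 1 lower without HN replicate 12 and 3 lower without PEC replicate 3. All tested genes called there came to 13.4% higher and 15.3% lower. Summed, the genes of this list came to 34.3, 36.9 and 31.4 FPKM in Control, then 51.0, 48.8 and 51.0 in HN, then 36.9, 38.6 and 44.8 in PEC, with Cldn12 the most abundant over the 9 libraries. Cldnd1, which is not counted among the 33 claudin genes and was named after its values were seen, alone held 11.1, 9.33 and 9.36 FPKM in Control and 16.9, 16.2 and 16.0 in HN.

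Proteins that build or anchor the junction with claudins were taken as a list of 25, of which 24 were tested. In HN against Control 5 rose and 4 fell, with a median of -0.06, shares close to the 17.7% and 14.7% of all tested genes. With library totals 8 rose (median 0.50), and the 4 that fell, Prkcz, Ildr2, Cgnl1 and Pard3, were no longer called. Cgnl1 and Pard3 were named after their values were seen. With the GC and length trends removed 2 rose and 4 fell. The cell adhesion genes Jam2 and Cxadr rose by 0.99 and 0.86, while the polarity kinase Prkcz fell by 1.13 and Ildr2, a component of tricellular junctions, fell by 0.86. In PEC against HN 8 of the 24 fell, with a median of -0.28, beside 15.3% of all tested genes. With the GC and length trends removed 4 of the 24 fell, as did 2744 of the 21358 genes in that fit, and 5 fell without HN replicate 8 or without PEC replicate 1. Cxadr was among the 8 with -1.07 (SE 0.10, edgeR adjusted p = 0.000105) and lay at -0.50 with the trends removed, not called. The scaffold Tjp1, named after its values were seen, fell by 1.14 (SE 0.11, edgeR adjusted p = 0.000125).

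Genes taken as regulators of claudins made up a list of 25, all tested. Not every one is an established regulator. Cap1, named after its values were seen, was counted in and was not called (0.26 in HN against Control, -0.11 in PEC against HN). Of the 25, 8 rose and 10 fell in HN against Control (median -0.34), beside 17.7% and 14.7% of all tested genes. In PEC against HN 7 rose and 5 fell, beside 13.4% and 15.3%, with a median of -0.04 that took either sign across settings. Without PEC replicate 2, 4 rose there. With library totals the balance turned, to 10 higher and 7 lower in HN (median 0.22) and 4 higher and 5 lower in PEC against HN. With the GC and length trends removed 8 rose and 11 fell in HN and 5 rose and 5 fell in PEC against HN. Sox9, a transcription factor of regenerating tubules, had 0.19, 0.08 and 0.12 FPKM in Control, then 9.09, 5.91 and 7.36 in HN, then 2.41, 2.95 and 2.57 in PEC. It rose by 5.29 in HN (SE 0.34, edgeR adjusted p = 5.93e-06) and fell by 1.28 in PEC against HN (SE 0.28, edgeR adjusted p = 0.00635). Egf, the growth factor made in the distal tubule, fell by 3.52 in HN and was higher by 1.76 in PEC against HN. The repressor Twist1 rose by 1.74 in HN and fell by 1.52 in PEC against HN, and the protease Prss8 fell by 1.62 in HN.

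Snail and Zeb factors, whose E-box is printed in capitals in the windows of Cldn3, Cldn4 and Cldn7, belong to the same list and were named after their values were seen. Snai1 and Zeb2 rose by 1.36 each in HN against Control (SE 0.19 each, edgeR adjusted p = 0.000425 and 0.000386), and Snai2 rose by 1.08 (SE 0.31, edgeR adjusted p = 0.0206). The call of Snai2 was lost without Control replicate 2 (0.94), Control replicate 5 (1.09) or HN replicate 12 (1.05), at edgeR adjusted p from 0.0528 to 0.0714. Zeb1 lay at 0.51, not called, and was called without Control replicate 4 (0.59) and with library totals (1.07). In PEC against HN Snai1 fell by 1.07 and Zeb2 by 1.59 (by 0.78 with the GC and length trends removed), while Snai2 and Zeb1 were not called. Whether these factors act on the claudins here was not tested.

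Other cells of the kidney moved with the groups, and their part in the claudin values was not tested. All 11 markers of injured tubular epithelium rose in HN against Control (median 4.24), beside 17.7% of all tested genes. Havcr1 rose by 7.58, Lcn2 by 6.28, Cd44 by 4.96 and Krt7 by 0.60. The call of Krt7 was lost without Control replicate 5 (0.40), HN replicate 4 (0.59) or HN replicate 12 (0.55) and with the GC and length trends removed (0.52), where 10 of the 11 rose. Of the 11, 2 were lower in PEC against HN, beside 15.3% of all tested genes. The number lower in that comparison was 1 with the trends removed and 4 with library totals or without PEC replicate 2. Krt7 was called higher there, at 0.62 (edgeR adjusted p = 0.028), and that call was lost without any 1 of the HN libraries, without PEC replicate 1 or 3 (0.55, edgeR adjusted p = 0.0686 without PEC replicate 3), with library totals, by limma and with the trends removed. The sum of the 11 was 533, 566 and 420 FPKM in Control, then 12300, 11100 and 11300 in HN, then 8510, 8690 and 7240 in PEC, with Spp1 the most abundant. All 7 fibroblast markers rose in HN (median 1.40, Col1a1 by 4.26), beside 17.7% of all tested genes. Of the 7, 5 fell in PEC against HN (Col3a1 by -1.30), beside 15.3%, and 3 with the GC and length trends removed. Among leukocyte markers all 7 rose in HN (median 2.72, Adgre1 by 3.74), beside 17.7% of all tested genes. Without Control replicate 2 or 4 or any 1 of the HN libraries 6 rose, and Cd79a was not called. Of the leukocyte markers 4 fell in PEC against HN (Adgre1 by -2.07), beside 15.3%. The fibroblast markers summed to 43.6, 42.5 and 37.8 FPKM in Control, then 303, 315 and 291 in HN, then 157, 173 and 147 in PEC, with Col3a1 the most abundant. The leukocyte markers summed to 21.1, 25.4 and 23.0 FPKM in Control, then 320, 380 and 296 in HN, then 108, 120 and 177 in PEC, with C1qa the most abundant. No marker of these lists was at 0 in all libraries, and Cd79a, the lowest leukocyte marker by its mean over the 9 libraries, had 0.06, 0.10 and 0.20 FPKM in Control, then 0.59, 0.65 and 0.69 in HN, then 0.43, 0.21 and 0.17 in PEC.

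The urothelium, which also carries Cldn4 and Cldn7, is the lining of the renal pelvis. Its 8 markers summed to 28.1, 29.9 and 19.5 FPKM in Control, then 9.63, 10.3 and 18.5 in HN, then 7.40, 4.38 and 93.8 in PEC, with Psca the most abundant and no marker at 0 in all libraries. Every HN library was below every Control library in this sum, which Psca carries, and PEC replicate 3 was the highest. Without Psca the sums were 7.79, 8.98 and 6.52 FPKM in Control, then 4.49, 5.71 and 10.6 in HN, then 4.08, 2.23 and 38.4 in PEC, and the groups overlapped. In each of the comparisons edgeR called 0 of the 8 markers, with 0 at an unadjusted p, 0 by DESeq2 and 0 of 7 by limma. With library totals 1 of the 8 was higher in HN and 1 in PEC against Control, the latter also with the GC and length trends removed. Without PEC replicate 3, 3 of the 8 were lower in HN against Control and 3 in PEC against Control, and without PEC replicate 2, 2 were higher in PEC against HN.

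Of the remaining lists, 3 of 5 thin limb markers fell in HN (median -1.34, Corin by -2.97), beside 14.7% of all tested genes. With library totals 2 were lower and 1 higher there. Of the 5, 3 rose in PEC against HN, beside 13.4% of all tested genes. The call of Akr1b3 in HN was lost without Control replicate 2 or 4 or any 1 of the HN libraries, at edgeR adjusted p from 0.108 to 0.14. That of Slc14a2 in PEC against HN was lost with library totals and without HN replicate 4 or 12. Without PEC replicate 3, 1 of the 5 was higher in HN and 1 lower in PEC against HN. In the distal convoluted tubule, which lies between the limb and the collecting duct, 3 of 7 markers fell in HN and 2 rose. All tested genes called there came to 14.7% lower and 17.7% higher. The median of the list was -0.42 and turned to 0.16 with library totals, and 1 rose without Control replicate 2 or 4 or HN replicate 4 or 8. In PEC against HN 2 rose and 1 fell (median -0.26), beside 13.4% and 15.3% of all tested genes. With the GC and length trends removed 3 rose and 1 fell (median 0.06), and 3 fell without PEC replicate 2 or with library totals. Parvalbumin (Pvalb) fell by 5.73 in HN (SE 0.71, edgeR adjusted p = 0.000196) and was higher by 3.90 in PEC against HN (SE 0.66, edgeR adjusted p = 0.00174), and the calcium channel Trpv5 rose by 1.65 in HN. Trpv5 was called lower in PEC against HN, at -0.65 (edgeR adjusted p = 0.0359), and the call was lost with upper-quartile scaling and without Control replicate 4, HN replicate 4 or 12 or PEC replicate 1 or 3 (-0.42, edgeR adjusted p = 0.0752 without PEC replicate 3). Of 7 endothelial markers 2 fell in HN, Kdr by 1.00 and Flt1 by 0.82 (median -0.30), beside 14.7% of all tested genes. With library totals neither was called, and 1 of the 7 was higher in HN (median 0.26). Emcn was called higher in PEC against HN, at 0.59 (edgeR adjusted p = 0.0249), and lay at 0.39 without PEC replicate 3 (edgeR adjusted p = 0.0419), where it was not called and 1 of the 7 was lower. Its call was also lost without any 1 of the Control libraries (0.58), without HN replicate 8 or 12 (0.56 and 0.54) and with library totals (0.40), where 1 of the 7 was lower, and with the GC and length trends removed it was called at 0.91.

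**Figure D5:**
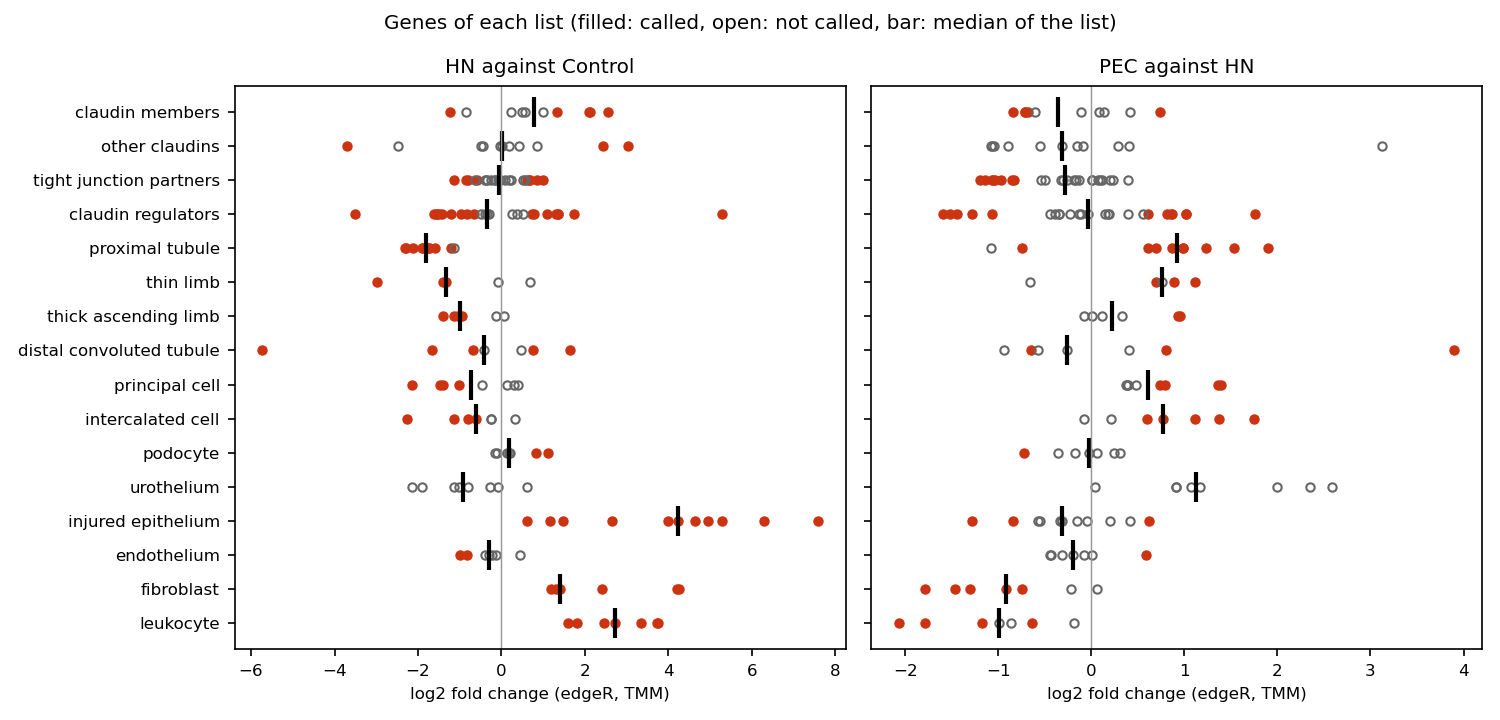
The log2 fold change (horizontal axis) of each tested gene of the claudin, junction, regulator, segment and cell type lists (vertical axis) in HN against Control and in PEC against HN, with filled points for called genes and a bar at the median of each list. The proximal tubule median is -1.82 on the left and 0.92 on the right, and the claudin median 0.78 and -0.36.

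Across the 9 libraries, genes whose log2 normalised counts followed each claudin closely were read by Pearson r, as a description over libraries that share group and base composition. For Cldn1 they were Gxylt2 (r = 0.995) and Neurl1a (0.995), and for Cldn3 Gbx2 (0.997) and Smoc2 (0.994). Cldn4 was followed by the valyl-tRNA ligase Vars (0.995). Vars had 4.76, 5.01 and 3.61 FPKM in Control, then 12.4, 12.6 and 12.1 in HN, then 8.40, 7.80 and 9.20 in PEC, so Control replicate 5 was its lowest library too. For Cldn7 the genes were Meis3 (0.988) and Git1 (0.987), for Cldn8 Zfp81 (0.986) and Rfc1 (0.966), for Cldn16 Zfp869 (0.957) and Cxxc1 (0.932), and for Cldn19 Msto1 (0.986) and Gm26600 (0.983). Cldn14, at its low level, was followed by Clec1b (0.950) and Gm47879 (0.931).

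Cldn10 was followed by genes of mitochondrial sequence, Gm28438 (0.993) and mt-Cytb (0.991). The latter had 15900, 16100 and 18300 FPKM in Control, then 6540, 6180 and 6610 in HN, then 13000, 11000 and 13300 in PEC. Cldn2 was followed by Epm2aip1 (0.992) and Nt5dc3 (0.992), both of which also stood at 0.15 FPKM in PEC replicate 3, against at least 2.09 for Nt5dc3 elsewhere. Over the 8 libraries without PEC replicate 3, a choice made after the data had been seen, they were Atp5b (0.995) and Iars2 (0.995). Atp5b, a subunit of the mitochondrial ATP synthase, had 588, 619 and 611 FPKM in Control, then 386, 363 and 372 in HN, then 276 and 348 in PEC replicates 1 and 2.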

How the data were processed

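RNA-seq of 9 mouse kidneys, 1 library per mouse and 3 mice in each of Control, HN and PEC, was read from the deposited table. The authors deposited raw counts per gene. FPKM per gene, made by the authors, were deposited beside the counts and used as levels without rescaling. The submitters' processing notes name Bowtie 0.12.2 with mm8 and mm9, whereas the coordinates are those of GRCm38. The counting program and strandedness are not given in the sources used here. Depth was 57714111 to 81069646 counted reads per library.

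In R 4.3.3, edgeR 4.0.16 (filterByExpr, TMM, quasi-likelihood F test) fitted all 9 libraries at once over 21392 genes. Called genes had a fold change of at least 1.5 and an adjusted p (Benjamini-Hochberg) of at most 0.05. The standard error is the log2 fold change divided by the root of F. The fit was tested on simulated data. Alternatives were RLE, upper-quartile and library-total scaling, DESeq2 1.42.0, limma 3.58.1 on log2 FPKM with 1 or 0.1 added, no filter, a mean FPKM of at least 0.5, only the 2 groups compared, an unadjusted p, a fold change of 2 and leaving out each library. Removing each library's trend on GC content and transcript length (splines with 5 degrees of freedom, 21358 genes) was added after the data had been seen, as were ratios to sums without a list's most abundant marker.

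The claudins and gene lists were chosen with earlier results of these data known. Lists are given by counts and medians, without a set test. Named are the 10 claudins, the 4 genes of each list with the largest changes called in HN against Control, the first 3 of each segment and cell type list, and genes among the 2 with the highest Pearson r to each claudin. The most abundant and the lowest genes of a list are named beside its sum. Any other gene is said to be named after its values were seen. By blastn 2.17.0, none of the 10 has another gene of at least 90% identity over at least 50% of its transcript. Isoforms were not analysed here, since the table holds genes.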

Additional observations from a re-analysis of the deposited data

How the results depend on the processing

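The calls of Cldn1, Cldn3, Cldn4, Cldn7 and Cldn10 in HN against Control and of Cldn1, Cldn3, Cldn4 and Cldn7 in PEC against Control held their direction and their side of the thresholds under all alternatives run. Where a count or direction below moved, the cause was not tested. No paired analysis was possible because the replicate numbers of the groups name different mice. In HN against Control, genes called higher numbered 7708 with library totals and 5906 by limma on log2(FPKM + 0.1). Genes called lower numbered 1286 with library totals, 1024 and 1191 by limma with 1 and 0.1 added, and 1902 at a fold change of 2. Claudins called higher numbered 8 with library totals and 7 by limma with either value added, and claudins called lower 2 with the 2 groups alone and 1 to 2 when single libraries were left out. In PEC against HN, genes called higher numbered 1356 and 1683 by limma with 1 and 0.1 added and 1771 at a fold change of 2, where 1823 were called lower. Claudins called higher numbered 0 with library totals, by limma with either value, at a fold change of 2 and with GC and length trends removed (chosen after the data had been seen), against 1 at an unadjusted p and 1 by DESeq2, and 1 to 2 when single libraries were left out. Claudins called lower numbered 1 with upper-quartile scaling, 0 at a fold change of 2 (4 at an unadjusted p and 4 by DESeq2, both at 1.5), 2 with the trends removed and 2 to 4 when single libraries were left out. In PEC against Control, genes called higher numbered 6415 with library totals. Genes called lower numbered 1960 with library totals, 1485 and 1919 by limma with 1 and 0.1 added and 2089 at a fold change of 2. Claudins called lower numbered 1 with the trends removed and 0 to 1 when single libraries were left out. Directions turned in PEC against HN for changes that were not called: Cldn2 from -1.12 to 0.001 when single libraries were left out (0.001 without PEC replicate 3), Cldn7 to 0.011 with upper-quartile scaling, and Cldn14 to -0.068 with library totals, -0.124 with the trends removed and from -0.19 to 0.78 when single libraries were left out. Cldn16 turned to -0.118 with library totals, -0.132 and -0.141 by limma, -0.335 with the trends removed and from -0.11 to 0.19 when single libraries were left out. Over all alternatives with an adjusted p, in PEC against HN it ran from 8.2e-07 to 0.117 for Cldn1, 5.47e-05 to 0.0169 for Cldn3, 0.000725 to 0.112 for Cldn4, 5.72e-05 to 0.0169 for Cldn8, 4.2e-07 to 0.0158 for Cldn10 and 0.0156 to 0.361 for Cldn19. For Cldn16 it ran from 0.00204 to 0.179 in HN against Control and from 0.00485 to 0.129 in PEC against Control. Cldn14 had 8 to 68 counts per library, 29, 21 and 68 of them in the HN mice, and standard errors of 0.55 to 0.57, and the part of depth in those errors was not tested.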
